A study of Danio rerio with 12 samples.

Results

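FACT and the Spt elongation factors were examined through the chromatin accessibility of their own promoters in zebrafish embryos mutant for supt16h. The set held supt16h and ssrp1a, the 2 subunits of FACT, supt6h, and supt5h and supt4h1, the 2 subunits of DSIF. Each gene had 1 start-site window in the table, so the set was 5 of 15674 windows. The windows were taken by gene name, each was 4000 bp long and centred on an annotated start site, and all 5 passed the filter on low signal.

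FACT takes histones off DNA ahead of RNA polymerase II and puts them back behind it. Spt6 is a histone chaperone that travels with the elongating polymerase, and DSIF holds the polymerase close to the start site until the kinase P-TEFb releases it. In zebrafish, supt5h and supt6h are known as foggy and pandora from mutants with defects of neurons and heart.

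Whole embryos were collected at 32 hours post fertilization after growth at 28 °C, deyolked and dissociated, and 50000 cells per library were treated with Tn5 transposase, which inserts adapters into open chromatin (ATAC-seq). The groups were homozygous supt16h-/- mutants and wildtype siblings. The labels name no allele and no number of embryos per library. Each group had 3 biological replicates in 2 technical repeats, 12 libraries in all. Values are normalized log2 signal, deposited without read counts, so the depth behind them is unknown. The medians of the libraries lay between 7.32 and 7.40. Values below are the mean of each technical pair, groups are given as mean ± SD (n = 3), and differences (mutant minus wildtype) carry limma's standard error (SE) and its Benjamini-Hochberg adjusted p over 15431 tested windows. In whole embryos, a change in the share of a cell type and a change in accessibility per cell cannot be told apart. Of 9 tissue marker genes looked at for this reason, all had a wildtype level above the filter of 4, from gata1a of red blood cells (5.45) to elavl3 of neurons (9.81). The neural progenitor gene sox2 rose by 0.78 ± 0.08 (SE, adjusted p = 6e-06), and the other 8 did not pass, at -0.15 to 0.17. The markers were not read with the replicate number as a block, a fit used below that called more windows. The part of cell type shares in the results below was not tested.

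Among the members, supt4h1 alone passed the test in the mutants, at 1.20 times the wildtype signal on the scale of the library columns. ssrp1a and supt6h lay 1.19 and 1.14 times above wildtype without passing. supt16h and supt5h lay close to the wildtype level, at 1.05 and 1.01 times. The count of 1 in 5 called higher stands against 8.02% of all tested windows called higher and 3.58% called lower. All 5 had a mean log2 value of at least 6. When only the 12389 windows of that level were tested, 1 of the 5 was called higher. Of the 12389, 1326 were called higher and 597 lower there. With the replicate number as a block, which the shared deviations of same-numbered replicates call for, ssrp1a and supt6h were called higher too. That made 3 of 5, against 14.0% of windows called higher and 9.47% lower in that fit. All 5 differences were above 0, as were those of 45.3% of all tested windows. Their median was 0.19, against -0.02 over all tested windows. Over the alternatives this median ran from 0.09 (quantile normalization, technical repeat 2 alone) to 0.22 (technical repeat 1 alone, equal library medians). With the library slope as a covariate, described at supt6h, it was 0.11 and only 3 of 5 were above 0. The directions follow the names of the library columns. In the authors' deposited table the log2 fold change has the opposite sign to those columns at all 3086 entries it calls. Its size there is a median 1.46 times the difference in the columns. Which sign is right was not tested. If the deposited one is, each rise given here is a fall.

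**Figure D1:**
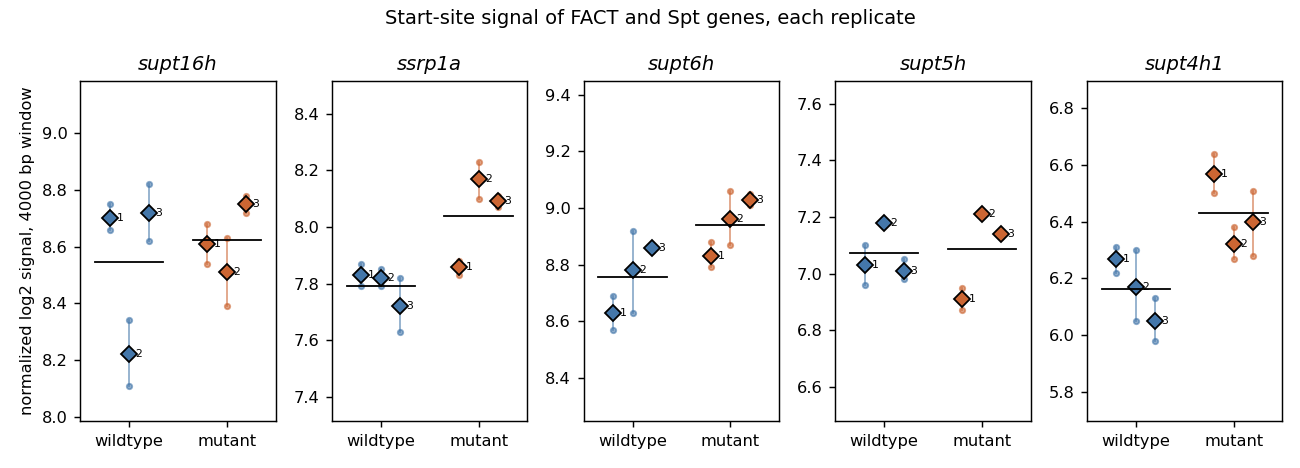
Normalized log2 signal in the start-site window of each gene (vertical axis, each panel spanning the same height) for wildtype siblings and supt16h mutants. Diamonds are biological replicates with their number, small circles joined by a line are the technical repeats, and black bars are group means. At supt4h1 the mutant replicates lie at 6.32 to 6.57, all above the wildtype range of 6.05 to 6.27. Such a separation was found at 15.5% of all tested windows, and the reverse at 14.0%.

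The mutated gene was considered first. The supt16h window (GRCz10 chromosome 7, 1441156 to 1445156, plus strand) had values of 8.61, 8.51 and 8.75 in mutant replicates 1, 2 and 3. Wildtype replicates 1, 2 and 3 stood at 8.70, 8.22 and 8.72. The groups overlapped, and wildtype replicate 2 was the lowest of all replicates in both of its technical repeats, at 8.11 and 8.34. The means were 8.62 ± 0.12 and 8.55 ± 0.28 (SD, n = 3 each), and the difference was 0.07 ± 0.13 (SE, 95% interval -0.20 to 0.35, adjusted p = 0.776). With the replicate number as a block the interval was -0.08 to 0.23 (adjusted p = 0.477). Leaving out wildtype replicate 2 gave -0.09 (adjusted p = 0.659), so the sign rests on that replicate. The spread between biological replicates, an SD of 0.218, was larger than at 97.3% of tested windows, where the median was 0.0926. The start-site window does not read the mutation and checks no genotype.

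ssrp1a encodes the other FACT subunit, which binds DNA through an HMG box. Its window (chromosome 14, 21716081 to 21720081, minus strand) had values of 7.86, 8.17 and 8.09 in mutant replicates 1, 2 and 3, and of 7.83, 7.82 and 7.72 in the wildtype. The groups did not overlap, but mutant replicate 1 lay only just above the wildtype, and its libraries, at 7.83 and 7.88, fell among those of the wildtype (7.63 to 7.87) or just above them. At 15.5% of all tested windows every mutant replicate was higher than every wildtype replicate, and at 14.0% every mutant replicate was lower. The difference was 0.25 ± 0.09 (SE, 95% interval 0.07 to 0.43, adjusted p = 0.0745). By replicate number it was 0.03, 0.34 and 0.37. With the replicate block ssrp1a was called (adjusted p = 0.0222). Leaving out mutant replicate 1 also gave a call (0.34, adjusted p = 0.0108), as did library medians set equal (0.0404), while leaving out mutant replicate 2 gave 0.18 (0.247). The library slope as a covariate, described at supt6h, took the difference to 0.11 (adjusted p = 0.716). With the 12 libraries kept apart the adjusted p was 0.00826, but that fit counts technical repeats as replicates, and it called 11.9% of all windows higher and 7.38% lower. The authors' deposited table gives it a log2 fold change of -0.377 and an adjusted p of 0.00841, and calls 19.0% of all windows. For the other FACT paralog gene, ssrp1b, no window was found, so it has no values here.

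The 2 FACT genes were then compared directly, as the ssrp1a value minus the supt16h value of the same replicate. This ratio on the log2 scale was -0.59 ± 0.22 in the mutants and -0.76 ± 0.32 in the wildtype (SD, n = 3 each). By replicate number the ratio was higher in the mutants by 0.12, 0.06 and 0.34. The difference of 0.17 had a two-sided exact permutation p of 0.5 (0.5 adjusted over 2 such comparisons). The permutation ignored the replicate number, so spread between numbers entered it, and 3 against 3 cannot go below 0.1. This test could therefore not settle whether the FACT genes differed in their response.

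supt6h encodes Spt6. Its window (chromosome 21, 25990312 to 25994312, plus strand) had values of 8.83, 8.96 and 9.03 in mutant replicates 1, 2 and 3, and of 8.63, 8.78 and 8.86 in the wildtype. The groups overlapped by the highest wildtype and the lowest mutant replicate, yet within each replicate number the mutant was higher by a nearly equal amount, 0.20, 0.19 and 0.17. The difference was 0.19 ± 0.09 (SE, 95% interval 0.01 to 0.37, adjusted p = 0.18) without the block. With the block it was 0.19 ± 0.06 (95% interval 0.06 to 0.31, adjusted p = 0.0284) and was called. It fell to 0.11 after cyclic loess normalization with the block (adjusted p = 0.232) and turned to -0.02 with the library slope as a covariate (adjusted p = 0.938). That slope, of a replicate on the mean of all, was 0.994, 1.04 and 1.04 in the mutants and 0.951, 0.988 and 0.988 in the wildtype, so it also differed between the groups. The authors' deposited table gives supt6h a log2 fold change of -0.259 and an adjusted p of 0.0684.

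The supt6h window was the only member window that overlapped the window of another gene. The start site of sdf2, whose product resides in the endoplasmic reticulum, lies 796 bp away on the minus strand, so the genes point away from each other and their windows share 3204 of 4000 bp. sdf2 stood at 8.71, 8.90 and 8.94 in the mutants and at 8.57, 8.74 and 8.83 in the wildtype. Its difference was 0.14 ± 0.09 (SE, adjusted p = 0.365), and 0.103 was the adjusted p with the block. Because most of the signal is shared, the values of supt6h cannot be given to its promoter alone. The nearest other start sites lay 49212 bp from supt16h (tox4b), 55614 bp from ssrp1a (p2rx3a), 12478 bp from supt5h (il15l) and 50422 bp from supt4h1 (mir142a).

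DSIF is made of Spt5, which P-TEFb phosphorylates, and the small zinc-finger protein Spt4. The supt5h window (chromosome 15, 20426873 to 20430873, plus strand) had values of 6.91, 7.21 and 7.14 in mutant replicates 1, 2 and 3, and of 7.03, 7.18 and 7.01 in the wildtype. The groups overlapped, with the lowest and the highest replicate both among the mutants. The difference was 0.01 ± 0.09 (SE, 95% interval -0.17 to 0.19, adjusted p = 0.959), and by replicate number it was -0.12, 0.03 and 0.13. The interval holds changes of 0.889 to 1.14 times the wildtype signal. Its sign turned without mutant replicates 2 or 3 or wildtype replicates 1 or 3 (-0.05 to -0.01).

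The supt4h1 window (chromosome 5, 2788582 to 2792582, plus strand) had values of 6.57, 6.32 and 6.40 in mutant replicates 1, 2 and 3. The wildtype replicates stood at 6.27, 6.17 and 6.05. No mutant replicate overlapped the wildtype, although the single libraries did, at 6.27 to 6.64 in the mutants against 5.98 to 6.31 in the wildtype. All mutant replicates were also higher at 15.5% of all tested windows, and all were lower at 14.0%. The difference was 0.27 ± 0.08 (SE, 95% interval 0.09 to 0.44, adjusted p = 0.0469), higher in 3 of 3 replicate numbers (0.30, 0.15 and 0.34). With the block the adjusted p was 0.00508, and after cyclic loess normalization the difference was 0.32 (0.0139). Adding the library slope as a covariate gave 0.48 (adjusted p = 0.0331). Of the fits that left out a replicate, all run without the block, only that without mutant replicate 2 kept the call (0.0264). Those without mutant replicates 1 and 3 gave adjusted p values of 0.145 and 0.0865, and those without wildtype replicates 1, 2 and 3 gave 0.0562, 0.0985 and 0.201. Leaving out limma's trend and robust options ended the call as well (0.0647), as did using technical repeat 1 or 2 alone (0.182 and 0.119). The authors' deposited table gives supt4h1 a log2 fold change of -0.503 and an adjusted p of 0.0116, and calls 19.0% of all windows. The sign there is opposite to that of the library columns and the size is larger.

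The supt4h1 value minus the supt5h value of the same replicate was -0.66 ± 0.28 in the mutants and -0.91 ± 0.13 in the wildtype (SD, n = 3 each). Mutant replicate 2, at -0.88, lay within the wildtype range of -1.01 to -0.76. By replicate number the ratio was higher in the mutants by 0.42, 0.13 and 0.22. The difference of 0.26 had a two-sided exact permutation p of 0.2 (0.4 adjusted over 2 comparisons). This permutation also ignored the replicate number and had the same smallest possible p of 0.1. That supt4h1 passed the threshold and supt5h did not is therefore no test of a difference between them, and these samples are too few for this test to reach 0.05.

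**Figure D2:**
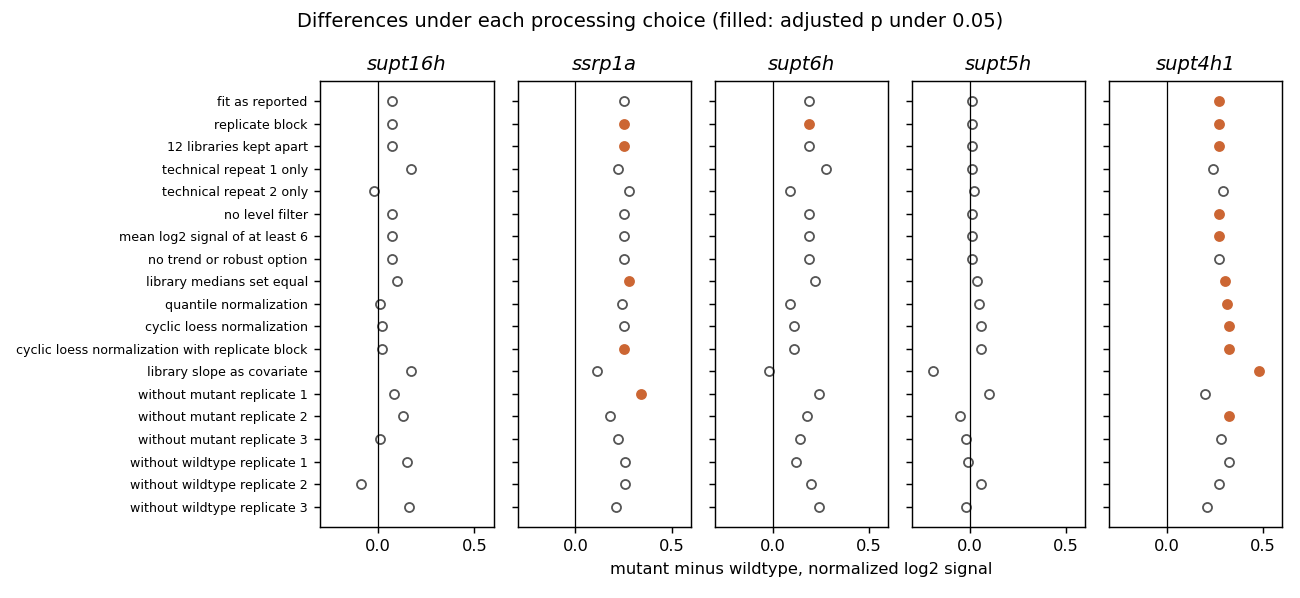
Mutant minus wildtype difference in normalized log2 signal (horizontal axis) of each gene under every processing choice (rows); filled circles have an adjusted p under 0.05. supt4h1 stays between 0.20 and 0.48 and ssrp1a between 0.11 and 0.34, while supt16h, supt6h and supt5h reach values below 0.

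The members differed more from each other than between the groups. In wildtype embryos supt6h was highest, at 8.76 ± 0.12, and supt16h next, at 8.55 ± 0.28, above 82.4% and 78.0% of tested windows. Their replicates overlapped, so this order does not hold beyond the spread. ssrp1a followed at 7.79 ± 0.06, supt5h at 7.07 ± 0.09 and supt4h1 at 6.16 ± 0.11, above 59.3%, 41.8% and 22.7% of windows. No wildtype replicates overlapped between these 3 genes, or between ssrp1a and supt16h. The order by group mean was the same in the mutants, at 8.94 ± 0.10, 8.62 ± 0.12, 8.04 ± 0.16, 7.09 ± 0.16 and 6.43 ± 0.13. All windows have the same length, but other properties of a locus that bear on its signal were not examined. The supt6h window shares 3204 of 4000 bp with that of sdf2, so its level is not that of its promoter alone. The FACT and the DSIF partners did not share a level of signal. The member with the lowest signal, supt4h1, was the only one that passed the test without the replicate block. With the block ssrp1a and supt6h passed too (limma adjusted p = 0.0222 and 0.0284), and supt6h had the highest signal.

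**Figure D3:**
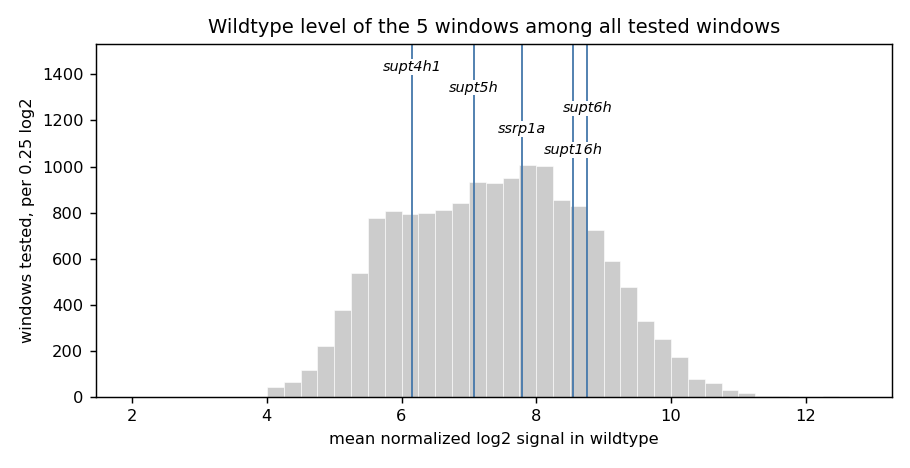
Number of tested windows (vertical axis) by mean normalized log2 signal in wildtype siblings (horizontal axis, steps of 0.25), with lines at the 5 genes. They run from supt4h1 at 6.16, in the lower part of the distribution, to supt6h at 8.76, in the upper part.

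The technical spread bears on these sizes. The SD between technical repeats was 0.124 at supt16h, 0.0740 at ssrp1a, 0.108 at supt6h, 0.0527 at supt5h and 0.121 at supt4h1, against a median of 0.111 over all tested windows. At supt6h and supt4h1 it was about as large as the SD between biological replicates (0.111 and 0.117). The technical SD is of single libraries and the biological SD is of means of a technical pair. The biological SD also holds the spread between replicate numbers, so their nearness does not give the technical share. With only technical repeat 1 of each replicate the supt6h difference was 0.28, and with only technical repeat 2 it was 0.09. For supt4h1 the same fits gave 0.24 and 0.29.

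The rest of the elongation machinery was read from lists of 45 genes, chosen with earlier results of these data known. A window was found for 36. Of these, 8 rose, 28 did not pass and none fell, where 8.02% of all tested windows were called higher and 3.58% lower. All 36 had a mean log2 value of at least 6. When only the 12389 windows of that level were tested, 9 of the 36 were called higher and none lower. Of the 12389, 1326 were called higher and 597 lower there. With the block 11 were called higher and none lower, against 14.0% and 9.47% of all windows. The median difference was 0.05, against -0.02 over all tested windows and 0.00 over those with a mean log2 value of at least 6. With the library slope as a covariate none of the 36 passed in either direction, while 340 of all windows were called higher and 102 lower. The median difference of the 36 was 0.04 in that fit.

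P-TEFb is the kinase that acts on DSIF. Of 6 genes of P-TEFb and its restraint, a list chosen with earlier results of these data known, 5 rose and 1 did not pass. The count is therefore a description. Of all tested windows, 8.02% were called higher and 3.58% lower. These 5 were among the 8 genes of the lists that rose, and they include the restraint gene hexim1. cdk9, the kinase itself, went from 7.69 ± 0.09 in the wildtype to 8.12 ± 0.13 in the mutants (SD, n = 3 each), a rise of 0.43 ± 0.08 (SE, 1.35-fold, adjusted p = 0.00229). Among the cyclin T genes, which activate Cdk9, ccnt2b rose by 0.54 ± 0.08 (1.45-fold, adjusted p = 0.00027), ccnt2a by 0.36 and ccnt1 by 0.29. hexim1, whose product holds P-TEFb inactive, rose by 0.38 ± 0.08 (adjusted p = 0.00464) from a level above 99.9% of tested windows, but lay at only 0.05 after cyclic loess normalization (adjusted p = 0.595). larp7, which stabilizes the 7SK RNA of the same inhibitory particle, lay at -0.05 ± 0.08, and at -0.20 with cyclic loess normalization and the block, where it was called lower (adjusted p = 0.02). In fits without the block, the calls of cdk9, ccnt2b and hexim1 held when any replicate was left out. That of ccnt2a was lost without wildtype replicate 2 (0.0568), and of the fits that left out a replicate that of ccnt1 held only without mutant replicate 1 (0.00739 against 0.0591 to 0.124). ccnt1 also lay at 0.18 and 0.19 without passing after quantile and cyclic loess normalization (adjusted p = 0.108 and 0.0925), and was called at 0.19 with the block added to the latter (0.0298). With technical repeat 2 alone cdk9, ccnt2a, ccnt1 and hexim1 did not pass (adjusted p = 0.103, 0.12, 0.372 and 0.147), and ccnt2b did (0.0024). With technical repeat 1 alone hexim1 did not pass (0.088). With the library slope as a covariate none of these 5 genes passed, at limma adjusted p of 0.0678 (ccnt2b) to 0.39 (ccnt1). All stayed above 0 in that fit. ccnt2b lay at 0.40 ± 0.11 (SE), cdk9 at 0.34 ± 0.13, ccnt2a at 0.27 ± 0.11, ccnt1 at 0.20 ± 0.11 and hexim1 at 0.18 ± 0.08. Without the covariate each SE was 0.08. The slope also differed between the groups.

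In the PAF1 complex, which rides on the polymerase beside DSIF, 1 of 6 genes rose. Of all tested windows, 8.02% were called higher and 3.58% lower. paf1 stood at 8.67 ± 0.10 in the wildtype and at 9.19 ± 0.28 in the mutants, a rise of 0.52 ± 0.12 (SE, 1.43-fold, adjusted p = 0.016, and 5.3e-05 with the block). In fits without the block, leaving out mutant replicate 1, wildtype replicate 1 or wildtype replicate 2 ended the call (adjusted p = 0.0809, 0.0716 and 0.0512). So did cyclic loess normalization (0.43, adjusted p = 0.0781), but not with the block added to it (0.43, adjusted p = 0.00015). cdc73 and ctr9 lay at 0.25 and 0.23 without passing (adjusted p = 0.055 and 0.077) and were called with the block (0.00773 and 0.0177). That fit called 14.0% of all tested windows higher and 9.47% lower. rtf1, with the highest signal of the complex, lay at 0.05 ± 0.08.

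Other groups held single calls or none, where 8.02% of all tested windows were called higher and 3.58% lower (14.0% and 9.47% with the block). Elongin A, a subunit of a factor that keeps the polymerase from stalling, is encoded by eloa, which rose by 0.39 ± 0.08 (adjusted p = 0.0046), the only one to rise among 7 genes of TFIIS and elongin. tcea1, of TFIIS, lay at 0.07. rnf20, a ligase that puts ubiquitin on H2B, rose by 0.29 ± 0.09 (adjusted p = 0.0387), 1 of 4 enzymes of that mark. Of the fits that left out a replicate, all run without the block, its call held only without mutant replicate 3 (0.00977 against 0.0742 to 0.166). With technical repeat 2 alone neither eloa nor rnf20 passed (0.0625 and 0.213), and rnf20 did not pass without the trend and robust options (0.0565). Among the other enzymes of the mark, ube2b lay at -0.07. None of 4 NELF genes, whose complex pauses the polymerase together with DSIF, passed, at -0.14 to 0.07 with nelfa highest. None of the 6 genes with a window listed for the super elongation complex passed, at -0.14 to 0.03, with eaf2 at 0.01. For aff1, aff4 and mllt1a of that list no window was found. The P-TEFb genes were listed apart, so this complex was read only in part. ccnk, the cyclin of kinases that act on the polymerase tail, lay at 0.29 ± 0.10 (adjusted p = 0.0863, and 0.00822 with the block), and at 0.04 with the library slope as a covariate (0.921). supt3h and supt7l, which carry an Spt name but belong to the coactivator SAGA, lay at 0.02 and 0.01.

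**Figure D4:**
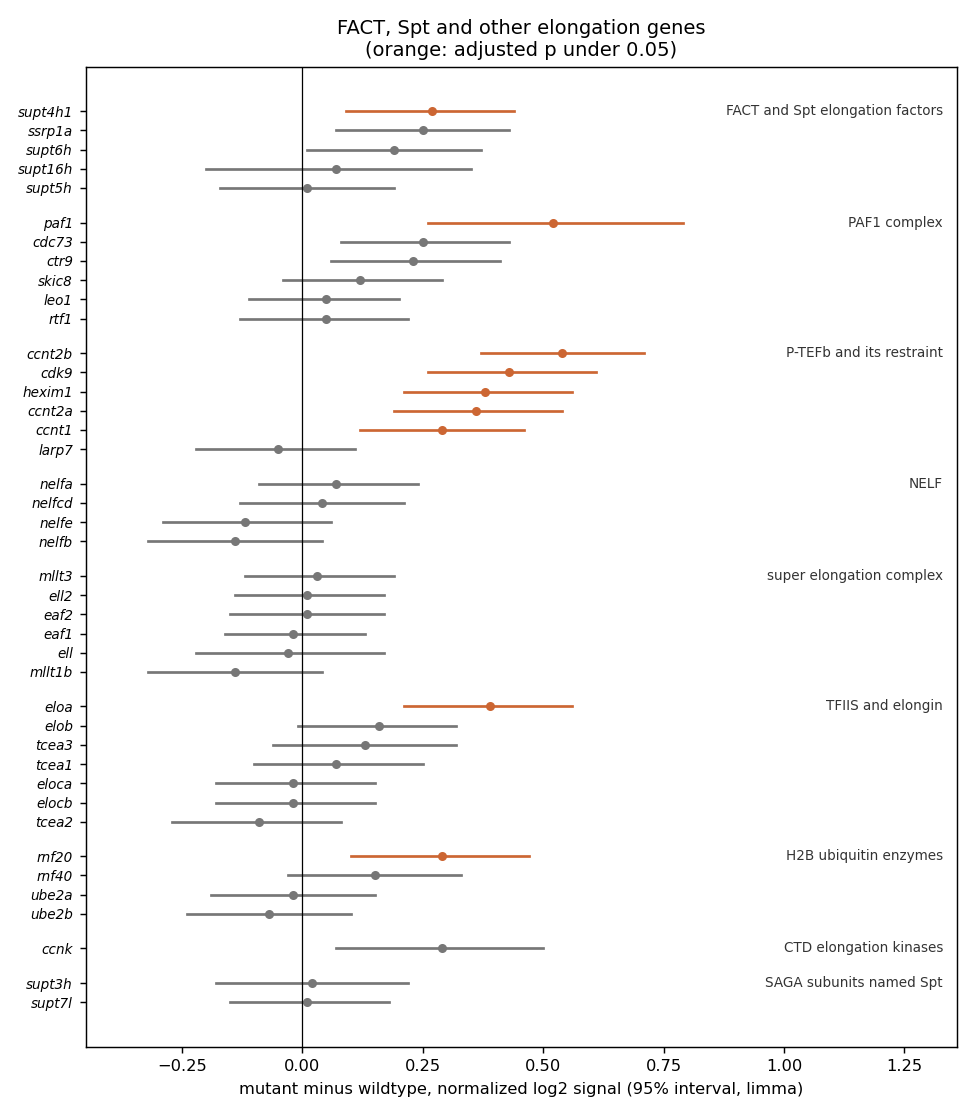
Mutant minus wildtype difference in normalized log2 signal (horizontal axis, point with 95% interval from limma) for the 5 genes and 36 other elongation genes, grouped by complex; orange marks an adjusted p under 0.05. The genes of P-TEFb and its restraint lie at 0.29 to 0.54 apart from larp7. The genes with a window listed under NELF and the super elongation complex, with P-TEFb kept apart, lie around 0.

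Likeness of profile was measured as Pearson r over the 12 libraries between a member and every other tested window with a gene name. The values are a description, since libraries of a pair are not independent and the best of so many windows is high by selection. The profile nearest to supt6h was that of sdf2 (r = 0.98), with which it shares signal, followed by slc1a5 (0.97). For ssrp1a the nearest were tomm20b (0.95) and csnk1g1 (0.94), and for supt4h1 csnk1g2b (0.95) and rps26l (0.91). For supt5h they were st14a (0.93) and stac3 (0.89), and for supt16h tank (0.88) and chtf8 (0.87). No member was among the 2 nearest profiles of another member. With only 2 kept from so many windows, this does not say whether the members vary together.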

How the data were processed

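The table gave 12 library columns of normalized log2 values, as deposited by the authors, with the transformation not named, and the authors' log2 fold change, p-value and adjusted p-value, per the file headers. Per the submitters' processing notes, CASAVA 1.8, FastQC 0.11.2, HOMER 4.9 and the build GRCz10 were used. Which aligner and read filters were used, and whether reads were shifted for Tn5, is not given in the sources used here. At nearly all entries called in the authors' deposited table, its fold changes were larger than the differences between the library columns, by a median of 2.17 times where the mean log2 value was under 6 and 1.39 times where it was 8 or more. Folds given here are therefore on the scale of the library columns.

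The 16555 entries were collapsed to 15674 windows. Of 567 entries without a name, 548 were named by RefSeq accession (reference gene table of assembly GRCz12tu, no coordinates used). List genes were matched by that accession. Windows with a mean log2 value of at least 4 (15431) were compared in limma 3.58.1 under R 4.3.3 (trend and robust options), 3 biological means against 3, threshold 0.05, after a check on simulated data. The simulated replicates had independent noise. That check therefore did not cover shared deviations of same-numbered replicates or a library slope that differs between groups. Nothing in the labels says that the biological replicates came from separate clutches, so p-values measure the spread between these samples. Columns carry a biological and a technical number and were assigned to groups, not to single labelled samples. Deviations from the group mean of same-numbered mutant and wildtype replicates correlated positively over windows (r = 0.46, 0.51 and 0.53). Those of other pairs had r of -0.33 to -0.17. Deviations in a group sum to 0, so positive values for the same numbers force negative ones among the rest. From the positive values the numbers were taken to pair the samples, and fits with the number as a block are given where they change a call. The members and gene lists were chosen with earlier results of these data known. Named were all members, other elongation genes with a called window, the one of highest signal per list, the 2 nearest profiles per member and genes whose windows overlap a member's. Genes outside this rule (larp7, cdc73, ctr9, supt3h and the genes at the nearest start sites) were chosen after their values were seen. Alternatives were the block, other uses of the technical repeats, other filters and scalings, the library slope as a covariate, and leaving out each replicate. Only the fits named with the block used the replicate number, so the others ignored the pairing. Promoter and protein sequences were not used here.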

Additional observations from a re-analysis of the deposited data

Results flagged for a closer look

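At ssrp1a, the second technical repeat of wildtype replicate 3 had a log2 signal of 7.63, below the other 5 wildtype libraries (7.79 to 7.87). It was the only flag among 12 sets of 6 libraries tested. For independent values chance flags about 1 set in 20. The libraries are technical pairs and the supt6h and sdf2 windows share signal, so that rate is only a rough guide. Without wildtype replicate 3 the ssrp1a difference was 0.21 (limma adjusted p = 0.232), against 0.25 with it.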

How the results depend on the processing

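Over 18 alternatives, supt4h1 and ssrp1a stayed above 0. supt4h1 was no longer called with technical repeat 1 (0.24) or 2 (0.29) alone, or without the trend and robust options (0.27). Leaving out a replicate gave 0.20 to 0.32, and supt4h1 was then called only without mutant replicate 2 (0.32). ssrp1a was called with the replicate block (0.25, also with cyclic loess normalization), with the 12 libraries kept apart (0.25) and with equal medians (0.28). Leaving out a replicate gave 0.18 to 0.34, and ssrp1a was then called only without mutant replicate 1 (0.34). supt6h was called with the replicate block (0.19). Leaving out a replicate gave -0.09 to 0.16 at supt16h and -0.05 to 0.10 at supt5h, and, among uncalled genes, -0.03 to 0.08 at supt7l, -0.02 to 0.04 at eaf2 and -0.01 to 0.13 at rtf1.

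With the library slope as a covariate, supt6h (-0.02), supt5h (-0.19), sdf2 (-0.11), ube2b (0.05), supt7l (-0.11), tcea1 (-0.06), eaf2 (-0.00) and rtf1 (-0.09) changed sign. With technical repeat 2 alone so did supt16h (-0.02), supt7l (-0.05), tcea1 (-0.03), eaf2 (-0.00) and rtf1 (-0.03). After quantile normalization supt7l, tcea1, eaf2 and rtf1 lay at -0.08, -0.04, -0.12 and -0.09, and after cyclic loess normalization, with or without the replicate block, at -0.07, -0.04, -0.13 and -0.09. The causes were not tested.

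Of all windows, 1238 were called higher and 552 lower. These counts were 2160 and 1461 with the replicate block, 524 and 234 with technical repeat 2 alone, and 340 and 102 with the slope. They were 973 and 771 after quantile normalization, and 1012 and 705 after cyclic loess normalization. Without a replicate they were 780 to 1587 and 248 to 636. Lower calls were 1139 with the 12 libraries apart and 1481 with the replicate block after cyclic loess normalization. Of the other elongation genes, 8 were called higher, against 2 with technical repeat 2 alone, 5 after quantile or cyclic loess normalization, 0 with the slope and 5 to 9 without a replicate. Called lower were 0, and 1, larp7, with the replicate block after cyclic loess normalization. Depth is unknown, so no floor can be given; the widths of the intervals limit what could be seen at the members.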
